A study of Mus musculus with 119 samples.

Results

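The genes of the AMPA and NMDA receptors were followed across 5 brain regions and between THC-treated and vehicle-treated mice. AMPA and NMDA receptors are the tetrameric glutamate-gated channels of excitatory synapses. AMPA receptors, built from GluA subunits (Gria genes), carry the fast current, and NMDA receptors pair the obligatory GluN1 subunit (Grin1) with GluN2 or GluN3 subunits (Grin2 and Grin3 genes), let in calcium and serve synaptic plasticity. The GluN2 subunit sets how long the channel conducts and how strongly magnesium blocks it, and in the forebrain the GluN2A subunit gains on GluN2B as the brain matures. The members were chosen by name, after other results of these data were known: Gria1, Gria2, Gria3 and Gria4 for the AMPA receptor, and Grin1, Grin2a, Grin2b, Grin2c, Grin2d and Grin3a for the NMDA receptor, which makes 10 of the 55291 genes in the deposited tables. All 10 passed the filter on low counts in each of the 10 comparisons of THC with vehicle and in the comparisons of regions.

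Messenger RNA was sequenced from tissue punches of the prefrontal cortex (PFC), the dorsal striatum (DMS), the nucleus accumbens (NAc), the amygdala (Amy) and the ventral tegmental area (VTA), in mice of both sexes. The study asked how exposure to THC, the psychoactive compound of cannabis, during adolescence alters gene expression in later life. THC-treated mice had received 10 mg/kg THC by intraperitoneal injection once a day for 21 days, from postnatal day 28 to 48, and vehicle-treated mice the same number of injections of ethanol, tween and saline. The strain is C57BL/6J by the labels and C57BL/6NCrl by the study's methods, and no engineered allele is given. All mice went through behavioral tests from postnatal day 63, and the age at collection is 11 weeks by the labels and a week later by the methods. Each of the 20 groups of region, sex and treatment held 6 libraries, 119 in all, since male vehicle VTA had only 5, and each library was 1 region of 1 mouse. No label ties a library to a mouse, so regions of 1 mouse were treated as independent. The labels call the DMS dorsolateral striatum while the sample titles and the study call it dorsal medial striatum.

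Library depth ran from 3090998 to 77042133 counts with a median of 22092612, and the shallowest library, FTL_371 from the VTA of a vehicle-treated male, still held at least 107 counts of every member. Region labels other than the Amy matched their markers in vehicle libraries. The dopamine transporter gene Slc6a3 averaged 1300 CPM (counts scaled to library size) in the VTA and at most 0.758 CPM elsewhere. The striatal gene Ppp1r1b averaged 3000 and 1110 CPM in the DMS and NAc. The vesicular glutamate transporter gene Slc17a7 of cortical neurons averaged 1910 and 529 CPM in the PFC and Amy. No marker set the Amy apart. The sum of 8 hypothalamic and medial amygdala markers averaged 26.3 CPM there and 20.7 CPM in the VTA, with overlap. Amy library FTL_352, of a THC-treated male, had a sum of 7 striatal medium spiny neuron markers of 2033 CPM, the next of its group being at 661.1 CPM. Of the 119 libraries, 2 went against their sex label. FTL_344, labelled female Amy THC, had 0.293 CPM of Xist and FTL_356, labelled male Amy THC, had 489 CPM, so the members' results in the Amy are also given without them. Expected counts of Grin2a were not whole numbers in 95% of libraries, those of Gria2 in 11.8% and those of Gria3 in 1.68%, which marks reads shared with other loci. What share of the reads of Grin2a this concerns was not measured, and its levels are uncertain. In the GENCODE vM21 annotation of the mm10 genome, Grin3a (chr4:49661611-49845744, minus strand) holds the gene Ppp3r2 on its own strand and Grin2d (chr7:45831883-45878378, minus strand) overlaps Kdelr1 on the other strand, and all coordinates given are those of whole genes, from first to last exon.

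The AMPA receptor genes were lowest in the VTA with the exception of Gria4. Levels are given as TMM-normalized CPM in vehicle libraries, 12 for each region and 11 for the VTA. The PFC and DMS were deposited in 1 table and the NAc, Amy and VTA in another. Differences between regions of different tables cannot be told apart from a difference between the tables. Gria2 (chr3:80681450-80802835, minus strand), which encodes the subunit that makes AMPA receptors impermeable to calcium after RNA editing, ran from 235.8 to 318.2 CPM in the VTA around a median of 257 CPM. In the Amy it ran from 647 to 803 CPM (median 697), in the NAc from 599.6 to 894 CPM (median 830.1), in the DMS from 885 to 1049 CPM (median 976) and in the PFC from 887 to 996 CPM (median 965). No VTA library reached any library of another region, and the PFC and DMS overlapped. The difference was −1.41 ± 0.047 (log2 fold change ± SE) for VTA against Amy, with an adjusted p of 4.4e-35 in the edgeR quasi-likelihood test.

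Gria1 (chr11:57011387-57330244, plus strand), which encodes the subunit whose insertion into synapses accompanies potentiation, had a different order. Its mean ± SD was 716 ± 59.6 CPM in the Amy, 651 ± 21.5 CPM in the NAc, 558 ± 21.8 CPM in the DMS, 458 ± 17.5 CPM in the PFC and 315.4 ± 26.4 CPM in the VTA. The Amy and NAc overlapped and the other neighbours in that order did not. Thus Gria1 was higher in the Amy than in the PFC by 0.62 ± 0.037 on the log2 scale (adjusted p = 1.18e-22) while Gria2 was lower by −0.43 ± 0.045 (adjusted p = 5.06e-13). The Amy and PFC lie in different tables and the ratios below span both, so the limit given above applies. The ratio of Gria1 to Gria2 within a library, in CPM, was lowest in the PFC, at a mean of 0.481 ± 0.0268, followed by the DMS at 0.578 ± 0.0343, the NAc at 0.823 ± 0.0892, the Amy at 1.00 ± 0.0643 and the VTA at 1.20 ± 0.122.

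Gria3 (chrX:41400854-41678601, plus strand), an X-linked subunit gene, stood out in the PFC. It averaged 428 ± 11.8 CPM there, 236 ± 31.9 CPM in the Amy, 226 ± 17.1 CPM in the DMS, 153 ± 19.0 CPM in the NAc and 83.7 ± 14.3 CPM in the VTA. No PFC library (403 to 445 CPM) fell within the range of another region, and the Amy and DMS did not differ beyond their spread (log2 fold change 0.01 ± 0.066, adjusted p = 0.856). Gria4 (chr9:4417896-4796234, minus strand), which encodes a subunit with fast kinetics, varied the least of the AMPA receptor genes. Its means were 141 ± 7.27 CPM in the PFC, 119.6 ± 19.1 CPM in the VTA, 107 ± 7.04 CPM in the Amy, 88.8 ± 4.58 CPM in the DMS and, at the low end, 82.4 ± 4.25 CPM in the NAc, and every pair of neighbours in that order overlapped. In the VTA it was higher than in the NAc (0.54 ± 0.050, adjusted p = 8.48e-15), where the other 3 AMPA receptor genes were higher than in the VTA.

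**Figure D1:**
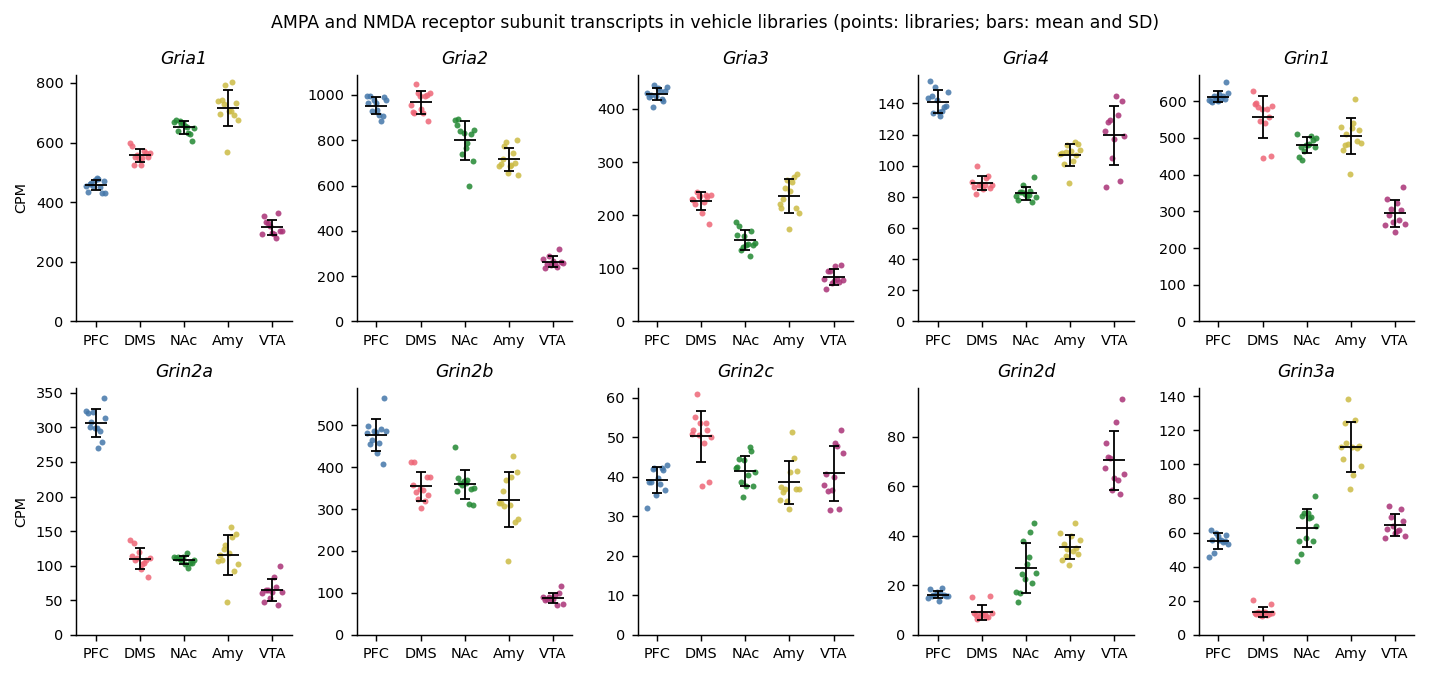
CPM of the 10 members (y axis, from 0) in the 59 vehicle libraries of the 5 regions (x axis); points are libraries and bars the mean and SD. Grin2d is highest in the VTA, at 56.7 to 95.2 CPM, where Gria2 and Grin2b are at their lowest, and Grin3a is lowest in the DMS, at 11.2 to 20.2 CPM.

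The NMDA receptor genes parted by region. Grin1 (chr2:25291181-25319187, minus strand), the obligatory subunit, had means of 612 ± 15.0 CPM in the PFC, 557 ± 56.3 CPM in the DMS, 504 ± 49.0 CPM in the Amy, 479.7 ± 21.8 CPM in the NAc and 294.4 ± 36.1 CPM in the VTA. The VTA lay below all other regions without overlap, and the others overlapped their neighbours. VTA against Amy gave −0.74 ± 0.052 (adjusted p = 7.51e-20) for Grin1.

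Grin2b (chr6:135713233-136173511, minus strand), which encodes the GluN2 subunit that prevails early in life and has a high affinity for glutamate, ranged from 71.3 to 115 CPM in the VTA, with a median of 85.5 CPM. It ranged from 176 to 426 CPM in the Amy (median 313.9), 302.6 to 412 CPM in the DMS (median 346.2), 310.3 to 448 CPM in the NAc (median 360.1) and 407 to 565 CPM in the PFC (median 484). All 11 VTA libraries lay below every other library. The log2 fold changes of the VTA were −1.84 ± 0.084 against the Amy (adjusted p = 6.43e-28) and −2.03 ± 0.085 against the NAc (adjusted p = 4.26e-30). Grin2a (chr16:9567898-9995560, minus strand), which encodes the GluN2 subunit of faster kinetics in mature cortex, ranged from 270.1 to 342.3 CPM in the PFC (median 304.4), well above its ranges of 84.0 to 136 CPM in the DMS (median 109), 96.7 to 118 CPM in the NAc (median 109), 47.8 to 157 CPM in the Amy (median 117) and 43.6 to 99.0 CPM in the VTA (median 62.3). The PFC did not overlap any other region, and the DMS, NAc and Amy did not differ from each other beyond their spread, with adjusted p values of 0.778 for NAc against DMS, 0.864 for Amy against DMS and 0.663 for Amy against NAc. DMS against PFC, 2 regions of the same table, gave −1.45 ± 0.103 (adjusted p = 3.2e-19).

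Grin2d, which encodes a GluN2 subunit of slow decay and weak magnesium block found mainly in interneurons and in the midbrain and brainstem, ran the other way. It ranged from 56.7 to 95.2 CPM in the VTA (median 67.3), 28.0 to 45.2 CPM in the Amy (median 34.8), 13.2 to 45.03 CPM in the NAc (median 24.7), 13.7 to 18.9 CPM in the PFC (median 15.9) and 6.50 to 15.8 CPM in the DMS (median 8.22). Every VTA library was above every library of the other regions, and the remaining neighbours overlapped. The VTA exceeded the Amy by 1.03 ± 0.130 (adjusted p = 3.78e-10) and the NAc by 1.41 ± 0.132 (adjusted p = 2.02e-14) on the log2 scale. Grin3a, which encodes a GluN3 subunit that lowers the calcium permeability of the receptor, ranged from 85.5 to 139 CPM in the Amy (median 110.1), 56.8 to 75.7 CPM in the VTA (median 62.0), 43.3 to 81.7 CPM in the NAc (median 66.0), 45.5 to 61.7 CPM in the PFC (median 55.5) and 11.2 to 20.2 CPM in the DMS (median 12.7). The Amy stood above and the DMS below all other regions without overlap, so the means of these 2 regions differed 8.18-fold, the widest span among the members. DMS against PFC gave −2.01 ± 0.088 (adjusted p = 5.15e-29) and Amy against NAc 0.78 ± 0.081 (adjusted p = 1.52e-12). Grin2c (chr11:115249169-115267243, minus strand), best known from the cerebellum and from astrocytes, was the flattest member, with means between 38.6 ± 5.39 CPM in the Amy and 50.3 ± 6.48 CPM in the DMS, and ranges that overlapped in all regions next to each other in that order.

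A member was called different where its adjusted p, the false discovery rate (FDR), was under 0.05 and its log2 fold change was 0.4 or more in size. Within a table, VTA against Amy called 8 of the 10 members, 7 of them lower in the VTA and Grin2d higher, where 43.4% of all 17476 genes tested were called (20.5% lower and 22.8% higher), and VTA against NAc also called 8, 6 of them lower, with 52% of all genes called (25% lower and 27% higher). DMS against PFC called 6 members, all lower in the DMS, with 49.3% of all genes called (22.3% lower). Amy against NAc called Gria3 and Grin3a, both higher in the Amy, beside 24.7% of all genes (12.2% higher and 12.6% lower). The median log2 fold change of the members was −0.772 for VTA against Amy and −0.723 for VTA against NAc, where that of all genes was 0.00652 and 0.0216. Between tables, 6 further pairs of regions called 7 members for VTA against PFC (55% of all genes), 9 for VTA against DMS (57.4%), 8 for Amy against PFC (37.4%), 5 for NAc against PFC (45.2%), 4 for Amy against DMS (43%) and 3 for NAc against DMS (30.8%), and these cannot be told apart from a difference between the tables.

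The marker sums of several cell types differed between the VTA and the Amy as well. The summed CPM of 6 oligodendrocyte markers averaged 14704 in VTA vehicle libraries and 4699.6 in the Amy, that of 5 astrocyte markers 1640.2 and 931, that of 5 pan-neuronal markers 3609.5 and 4218, and that of 6 cortical projection neuron markers 30.9 and 611, and the part of these in the difference was not tested. Grin2b was also higher in the NAc and DMS than in the VTA, and the sums of these regions are given as well. The pan-neuronal sum averaged 3645.7 CPM in the NAc and 3433.7 CPM in the DMS, close to the VTA. The genes in this sum went both ways. Rbfox3 was lower in the VTA (85 CPM) than in the NAc (222 CPM) and the DMS, and Map2 was lower than in the NAc. Snap25 was higher in the VTA (1510 CPM) than in the NAc (1030 CPM) and the DMS (1350 CPM), as was Syn1. The close sums thus do not show an equal neuronal content. The cortical sum averaged 25.9 CPM in the NAc and 25.5 CPM in the DMS, against 30.9 CPM in the VTA. The oligodendrocyte sum, 4402.7 and 6954.3 CPM, and the astrocyte sum, 885.9 and 630 CPM, were lower than in the VTA. The sum of 3 GABAergic neuron markers averaged 1893 CPM in the NAc, 1305.6 CPM in the DMS and 750 CPM in the VTA. That of 7 striatal medium spiny neuron markers averaged 3132, 8066 and 235 CPM. The part of these sums in the level of Grin2b was not tested. Within the astrocyte list, Slc1a3 was lower in the VTA than in the Amy. In punches of tissue, fewer cells of a type cannot be told apart from less RNA per cell.

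Divided by exon length, which allows genes to be compared with each other, the mix of subunits differed between regions. As a mean share of the summed CPM per kilobase of the 4 GluN2 genes, Grin2d made up 40.9 ± 2.57% (SD, n = 11) in the VTA, 16.8 ± 2.52% in the Amy, 12.4 ± 4.57% in the NAc, 5.25 ± 0.490% in the PFC and 4.35 ± 1.53% in the DMS. Grin2b made up 13.9 ± 2.08% in the VTA and between 39.8 ± 2.62% in the Amy and 44.9 ± 1.95% in the DMS elsewhere. In shares of counts, Grin2d made up 26.6% and Grin2b 33.6% in the VTA, against 7.15% and 62.8% in the Amy, so the VTA still had more Grin2d and less Grin2b than the Amy while Grin2b was the larger of both within the VTA. Per exon length, Grin2a reached 36.7 ± 1.25% in the PFC and stayed between 13.8 ± 1.68% in the VTA and 19.6 ± 2.50% in the Amy in the other regions. In shares of counts, Grin2a made up 36.5% in the PFC, 24.2% in the VTA and 20.3% to 22.3% in the NAc, DMS and Amy. The place of the VTA thus rests on the exon length. Among the 4 AMPA receptor genes, per exon length, Gria1 took the largest mean share in every region, from 37.3 ± 1.23% in the PFC to 57.6 ± 1.20% in the Amy, but this order rests on the exon length, which is 15548 bases for Gria2 and 6043 for Gria1. In shares of counts not divided by length, Gria2 was ahead in the PFC (48.1% against 23.1%), the DMS (52.5% against 30.34%) and the NAc (47.3% against 38.7%), level with Gria1 in the Amy (40.4% against 40.3%) and behind it in the VTA (33.7% against 40.4%). Per exon length, Gria4 made up 19.6 ± 3.08% in the VTA and between 6.99 ± 0.622% and 11.0 ± 0.539% elsewhere. Gria3 made up 21.4 ± 0.464% in the PFC and between 8.27 ± 0.780% and 11.98 ± 0.596% elsewhere. The ratio of Grin2a to Grin2b in CPM averaged 0.644 ± 0.0334 in the PFC and 0.736 ± 0.154 in the VTA, against 0.304 ± 0.0210 to 0.356 ± 0.0392 in the DMS, NAc and Amy. The summed CPM per kilobase of the AMPA receptor genes was 96.6 ± 4.43 in the VTA and 188 ± 8.81 to 205 ± 16.1 in the other regions, and that of the NMDA receptor genes 61.4 ± 7.01 and 87.4 ± 3.07 to 114 ± 3.66.

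**Figure D2:**
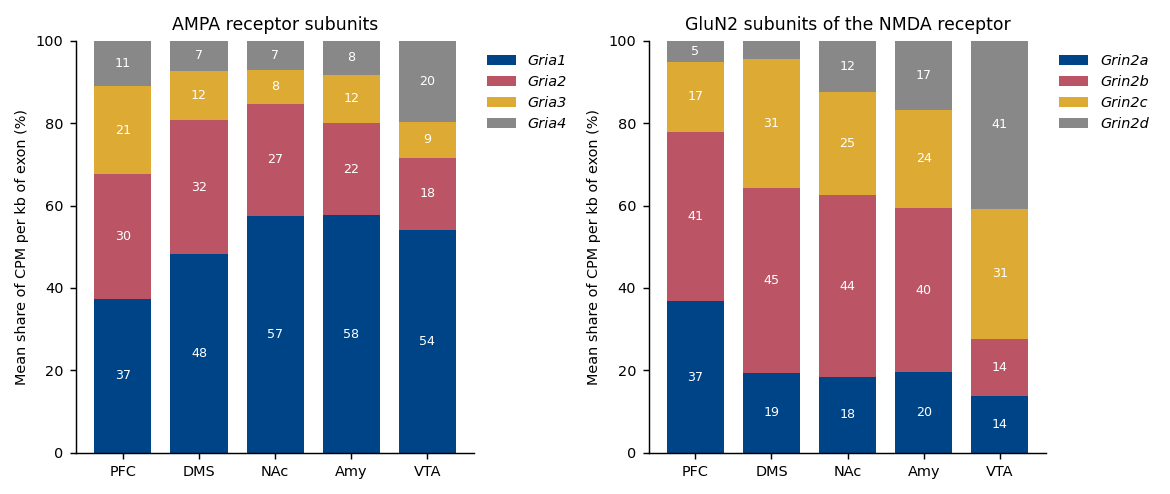
Mean share of each gene in the summed CPM per kilobase of exon (y axis, %) of the 4 AMPA receptor genes (left) and the 4 GluN2 genes (right), by region (x axis), in vehicle libraries. Grin2d makes up 40.9% of the GluN2 sum in the VTA and 4.35% in the DMS.

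Across all 119 libraries, Gria2, Grin1 and Grin2b ran alike, with Pearson's r of log2 CPM of 0.926 for Gria2 and Grin1, 0.955 for Gria2 and Grin2b and 0.959 for Grin1 and Grin2b. Grin2d ran against Gria2 (r = −0.844) and with Grin3a (r = 0.762). Grin2c was least like the others, with r between −0.59 and 0.238. These values describe libraries that share 5 regions and 2 tables. Among the 18932 genes kept, those most like Grin2b included Pcdhgc5 (r = 0.986) and Wasf1 (r = 0.984). Those most like Grin2d were Psd2 (r = 0.972), Dgkq (r = 0.97) and Ubap1l (r = 0.969), and those most like Grin3a were Pcdh19 (r = 0.975), Prkar2a (r = 0.971) and Klhdc10 (r = 0.967). For Gria2 they included Celf2 and Gas7 (both r = 0.985), for Grin1 they were Paqr9, Adgrb2 and Synpo (0.97 to 0.966) and for Grin2a Nlk, Lmbrd2 and Snph (0.972 to 0.969). For Gria1 they were Gabra2, Tiam1 and Krt77 (0.961 to 0.949), for Gria3 Ppp3cb, Atl1 and Vps50 (0.978 to 0.968) and for Gria4 Septin6, Eps15 and Glrb (0.947 to 0.937). For Grin2c the leading 3, Tmem250-ps, Scrt2 and Cnnm2, reached only 0.733 to 0.709.

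The upstream sequences of a pair that ran alike, Gria2 and Grin1, and of Grin2c, the member least like the others, are shown as the 250 bases before the gene start in RefSeq (GRCm38.p6), 5′ to 3′ on the minus strand, with matches to the GC box (GGGCGG or CCGCCC) and to the E-box CACGTG in capitals. They lie at chr3:80802836-80803085 for Gria2, chr2:25319188-25319437 for Grin1 and chr11:115267244-115267493 for Grin2c.
Gria2: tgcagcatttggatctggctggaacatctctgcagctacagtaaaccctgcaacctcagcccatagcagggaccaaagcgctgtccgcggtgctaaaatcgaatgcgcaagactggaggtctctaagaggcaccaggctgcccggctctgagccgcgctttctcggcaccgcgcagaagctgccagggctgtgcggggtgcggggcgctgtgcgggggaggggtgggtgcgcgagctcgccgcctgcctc
Grin1: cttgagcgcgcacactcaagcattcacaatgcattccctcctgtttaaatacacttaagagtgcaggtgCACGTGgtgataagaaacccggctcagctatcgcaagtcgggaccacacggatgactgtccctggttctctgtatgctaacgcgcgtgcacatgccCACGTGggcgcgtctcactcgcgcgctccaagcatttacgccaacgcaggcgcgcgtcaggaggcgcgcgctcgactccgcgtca
Grin2c: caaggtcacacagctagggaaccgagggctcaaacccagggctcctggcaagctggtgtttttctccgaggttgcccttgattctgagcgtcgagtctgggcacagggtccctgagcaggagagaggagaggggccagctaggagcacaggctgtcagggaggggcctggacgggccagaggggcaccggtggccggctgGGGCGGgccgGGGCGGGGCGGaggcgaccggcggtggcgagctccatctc
The Grin2c window held 3 GC boxes and those of Gria2 and Grin1 none, while 32.7% of all 32851 upstream windows held at least 1. The Grin1 window held 2 copies of the E-box, and 6.02% of all windows held at least 1. Of the 10 members, 5 were in the RefSeq table, and besides these 3 the windows of Gria4 and Grin2d held neither motif.

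THC against vehicle was then compared for each region and sex. No member was called in any of the 10 comparisons by edgeR, with 12 of the 100 values at an unadjusted p under 0.05, and DESeq2 called 2 values, both in the female Amy. The share of all genes at that unadjusted p by edgeR ran from 1.84% in the male Amy to 21.9% in the female Amy. The median size of the 100 log2 fold changes was 0.0615 and their median SE 0.0668. Outside the female Amy and the male NAc, the 80 log2 fold changes lay between −0.312 (Grin2d, female DMS) and 0.201 (Gria4, female VTA), with no adjusted p under 0.431 and SEs of up to 0.258. All genes were called at rates of 1.57% in the female Amy, 0.0127% in the female DMS and 0% in the other 8 comparisons. The largest SEs were those of Grin2d in the NAc, 0.258 in females and 0.256 in males. Even the log2 fold change of −0.628 of Grin2d in the male NAc was not called (adjusted p = 0.26 by edgeR), so smaller changes could be missed there.

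**Figure D3:**
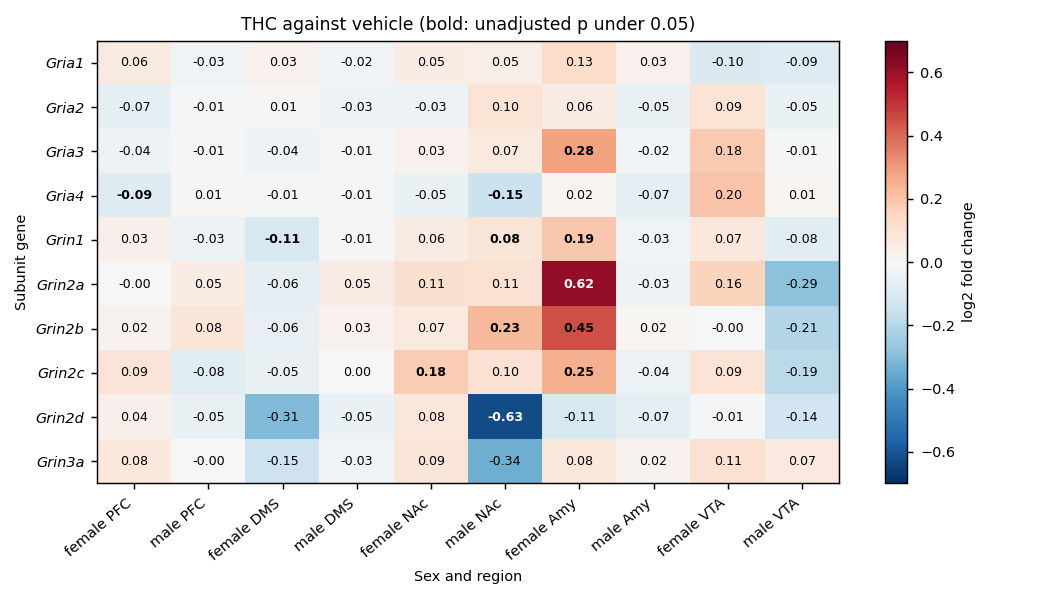
Log2 fold change of THC against vehicle for the 10 members (rows) in the 10 comparisons of sex and region (columns), with values in bold at an unadjusted p under 0.05. The largest values are 0.62 for Grin2a and 0.45 for Grin2b in the female Amy and −0.63 for Grin2d in the male NAc.

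In the female Amy, 9 of the 10 members had a higher mean in THC than in vehicle libraries, and the largest differences were those of Grin2a and Grin2b. Grin2a was at 146, 152, 162, 164, 167 and 181 CPM in the 6 THC libraries and at 47.8, 107, 108, 115, 123 and 130 CPM in the 6 vehicle libraries. The groups did not overlap, and the log2 fold change was 0.62 ± 0.177 with an adjusted p of 0.08. Grin2b was at 372.9, 384, 386, 423, 462 and 476 CPM with THC and at 176, 308.1, 313.4, 314.4, 343.9 and 368.4 CPM with vehicle. These groups did not overlap either, and the log2 fold change was 0.45 ± 0.139 with an adjusted p of 0.0948. In both genes the lowest vehicle value by far was that of library FTL_338.

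Grin2c was the only member under an FDR of 0.05 by edgeR, at 39.0 to 44.6 CPM with THC (median 41.8) against 31.7 to 37.5 CPM with vehicle (median 35.1). Its groups did not overlap, and its log2 fold change of 0.25 ± 0.058 (adjusted p = 0.0393) was below the fold threshold, while 2.72% of all genes were under this FDR. Gria3 ranged from 250.8 to 291.5 CPM (median 276.5) against 174 to 266.4 CPM (median 226), with 5 of 6 THC libraries above every vehicle library, a log2 fold change of 0.28 ± 0.085 and an adjusted p of 0.0898. Grin1 gave 0.19 ± 0.075 (adjusted p = 0.17) and Gria1 0.13 ± 0.070 (adjusted p = 0.291), and Grin2d, the only member with a lower mean, gave −0.11 ± 0.098 (adjusted p = 0.515). At an unadjusted p under 0.05 there were 5 of 10 members and 21.9% of all 17003 genes, and the median log2 fold change was 0.158 over the members and −0.00567 over all genes. The share of all genes whose groups did not overlap was not computed. Whether Grin2a, Grin2b and Grin2c stood out from other genes in this is therefore not known.

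The calls in the female Amy turned on the tool and on 1 library. DESeq2 called Grin2a (0.62, adjusted p = 0.0131) and Grin2b (0.45, adjusted p = 0.0309) beside 3.39% of all genes, and by DESeq2 Grin2c (adjusted p = 0.00311) and Gria3 (adjusted p = 0.0321) were under the FDR but not the fold threshold, with 8.21% of all genes under the FDR. Without FTL_338, edgeR called Grin2a (0.47, adjusted p = 0.00218), and Grin2b was under the FDR but not the fold threshold (0.33, adjusted p = 0.0174). The share of all genes called without FTL_338 was not computed, so whether the members stood out from other genes there is not known. Over all 12 libraries left out in turn, the adjusted p of Grin2a ran from 0.00218 to 0.182, that of Grin2b from 0.0174 to 0.215 and that of Grin2c from 0.0229 to 0.114. Without FTL_344, whose sex genes went against its label, the values were 0.61 (adjusted p = 0.141) for Grin2a, 0.42 (adjusted p = 0.18) for Grin2b, 0.27 (adjusted p = 0.0503) for Grin2c and 0.27 (adjusted p = 0.169) for Gria3.

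Markers of other cell types moved with these genes. The summed CPM of 6 cortical projection neuron markers was 795 to 1137 in the female Amy THC libraries and 505 to 746 in the vehicle libraries, with no overlap, and that of 7 markers of striatal medium spiny neurons was 722 ± 145 against 421 ± 141. The sum of 8 hypothalamic and medial amygdala markers was 14.2 ± 2.73 CPM with THC and 25.6 ± 7.84 CPM with vehicle, that of 5 pan-neuronal markers 4763 ± 267.01 against 4056 ± 519 and that of 6 oligodendrocyte markers 3318 ± 717 against 4489 ± 1777. FTL_338 had the lowest pan-neuronal sum of these 12 libraries, 3059 CPM, and the lowest cortical sum, 505 CPM. The sum of 3 choroid plexus markers, led by Ttr, was above 400 CPM in 3 of 6 vehicle libraries (427.4, 848 and, in FTL_338, 1113 CPM) and 2 of 6 THC libraries (2132 CPM in FTL_344 and 3420 CPM in FTL_343), and between 7.70 and 11.2 CPM in the other 7. The part of these markers in the values of the members was not tested.

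**Figure D4:**
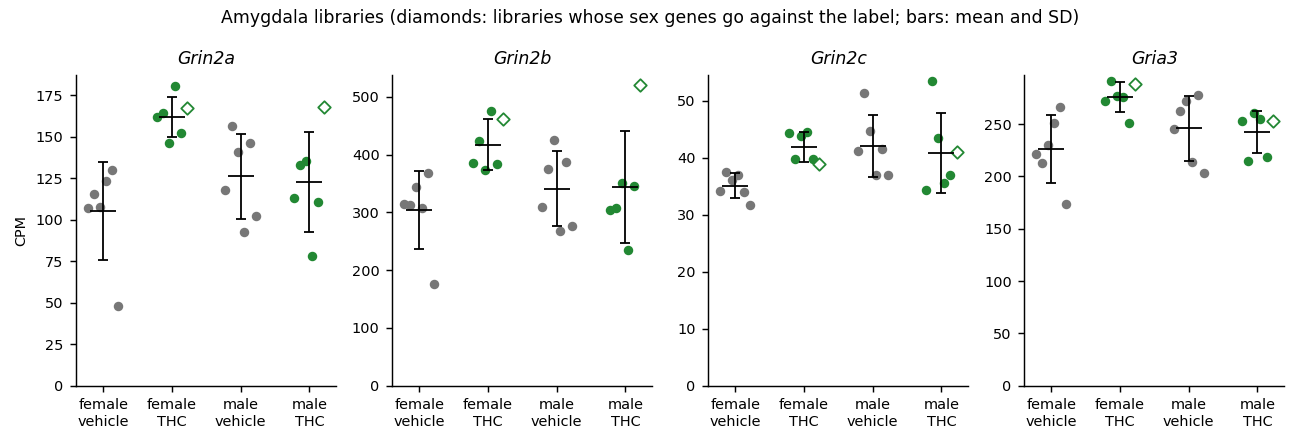
CPM (y axis, from 0) of Grin2a, Grin2b, Grin2c and Gria3 in the 24 Amy libraries by sex and treatment (x axis); points are libraries, diamonds the 2 libraries whose sex genes go against their label, and bars the mean and SD. Female THC libraries lie above all female vehicle libraries for Grin2a, Grin2b and Grin2c, and the male groups overlap. The share of all genes that separate in this way was not computed.

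In the male Amy no member differed beyond its spread. The 10 log2 fold changes lay between −0.0678 and 0.0308 with SEs of 0.0624 to 0.168, 0 members had an unadjusted p under 0.05 by edgeR, and DESeq2 called none. Grin2a ranged from 77.9 to 168 CPM with THC (median 123) and from 92.7 to 157 CPM with vehicle (median 129). Grin2b ranged from 235 to 521 CPM with THC (median 326.8) and from 267.99 to 426 CPM with vehicle (median 342.8), so both pairs of groups overlapped. The highest THC value of both genes was that of FTL_356, labelled male but with the sex genes of a female, which also had the highest cortical projection neuron sum of the 24 Amy libraries, 1233 CPM. Without it, the log2 fold changes were −0.14 for Grin2a and −0.14 for Grin2b (adjusted p = 0.998 for both). The sex x treatment interaction, which tests whether the THC difference differs between the sexes, gave −0.65 ± 0.260 (male minus female, adjusted p = 0.268) for Grin2a, −0.43 ± 0.232 (adjusted p = 0.36) for Grin2b, −0.29 ± 0.127 (adjusted p = 0.286) for Grin2c and −0.30 ± 0.121 (adjusted p = 0.271) for Gria3, while 0.0059% of all genes were called. Without FTL_344 and FTL_356 it gave −0.75 (adjusted p = 0.2) for Grin2a and −0.56 (adjusted p = 0.216) for Grin2b, the lowest adjusted p of the 10 members being 0.2, and for male against female in the Amy the lowest was 0.693.

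**Figure D5:**
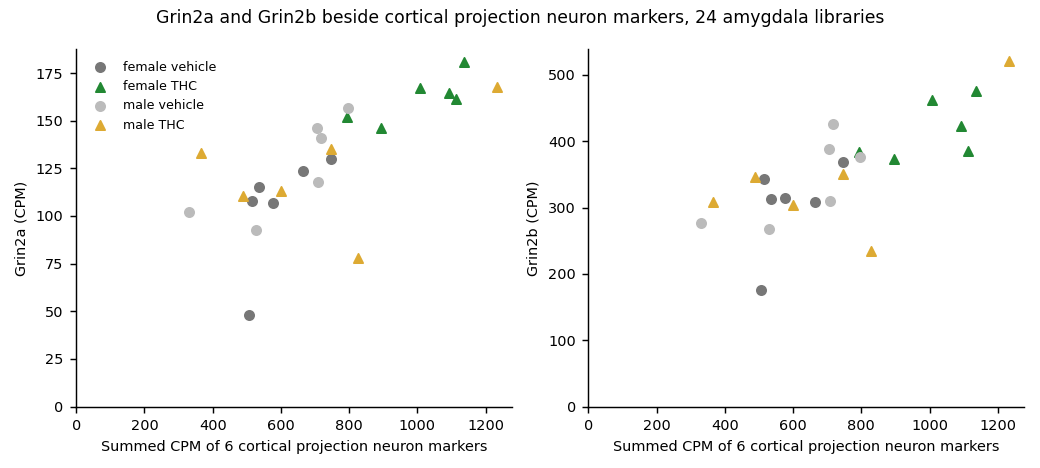
CPM of Grin2a (left) and Grin2b (right) on the y axis against the summed CPM of 6 cortical projection neuron markers on the x axis in the 24 Amy libraries, coloured by sex and treatment. The female THC libraries lie at marker sums of 795 to 1137 CPM and the female vehicle libraries at 505 to 746 CPM.

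In the male NAc edgeR called 0 members, with 4 of 10 at an unadjusted p under 0.05 beside 16.7% of all 15932 genes, and DESeq2 called none and gave no adjusted p for Grin2c and Grin2d. By DESeq2, Grin1 (0.08, adjusted p = 0.0368) and Grin2b (0.23, adjusted p = 0.0397) were under the FDR but far below the fold threshold, and 4.08% of the 4925 genes that it gave an adjusted p were under the FDR. Grin2d was at 11.7, 16.5, 16.9, 23.8, 24.6 and 31.1 CPM with THC and at 21.1, 25.1, 28.5, 31.3, 41.6 and 45.03 CPM with vehicle. The groups overlapped, with 3 of 6 THC libraries below every vehicle library, and the log2 fold change was −0.63 ± 0.256 (adjusted p = 0.26). Grin3a followed at −0.34 ± 0.157 (adjusted p = 0.301). Grin2b was at 338.2, 394, 397, 422, 423 and 434 CPM with THC and at 310.3, 311.6, 348.7, 350.02, 362.8 and 370.4 CPM with vehicle, with 5 of 6 THC libraries above every vehicle library and a log2 fold change of 0.23 ± 0.063 (adjusted p = 0.21). Grin1 was the 1 member of the male NAc whose groups did not overlap, at 507 CPM or more with THC (mean 519.7 ± 9.94) against a mean of 489.9 ± 11.9 CPM with vehicle, a difference of 0.08 ± 0.033 (adjusted p = 0.248). The share of all genes whose groups did not overlap was not computed, so this does not set Grin1 apart from other genes. Gria4 gave −0.15 ± 0.053 (adjusted p = 0.216).

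The sum of 7 medium spiny neuron markers was 3846 ± 743 CPM in the male NAc THC libraries and 2954 ± 390 CPM in the vehicle libraries (ranges 2890 to 4725 and 2283 to 3325). The part of this in the values of the members was not tested. In the female NAc, Grin2d gave 0.08 ± 0.258 (adjusted p = 0.994), and the interaction gave −0.71 ± 0.373 (adjusted p = 0.486). With both sexes in 1 fit, 6 of 10 members of the NAc were at an unadjusted p under 0.05, beside 10.2% of all genes, and none was called, with Grin2b at 0.15 ± 0.046 (adjusted p = 0.33).

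Over the 5 regions, no member was called for THC over both sexes (6 of 50 values at an unadjusted p under 0.05), for the interaction (6 of 50) or for sex (8 of 50) by edgeR, nor by DESeq2. By region, 4.81% to 10.2% of all genes were at that unadjusted p for THC over both sexes. For the interaction the share was 5.87% to 15.8%, and for sex 6.06% to 27.8%. Of all genes, 0% were called for THC over both sexes, at most 0.0059% for the interaction, and for sex 2.64% in the DMS against 0.25% in the NAc, 0.237% in the PFC, 0.113% in the VTA and 0.0118% in the Amy. Under the FDR alone, by edgeR, 2 members differed between males and females, both in the DMS, where 10.9% of all genes did. Grin2a averaged 102 ± 8.18 CPM in males and 117 ± 15.0 CPM in females, a log2 fold change of −0.19 ± 0.059 (adjusted p = 0.04), and Grin2c 46.7 ± 4.87 CPM and 52.8 ± 4.32 CPM, a log2 fold change of −0.16 ± 0.051 (adjusted p = 0.0419), with overlap between the sexes for both.

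Genes whose products work with these receptors were counted from lists of 14 AMPA receptor auxiliary proteins, 15 anchoring and scaffold proteins, and 8 other subunits (kainate and delta receptors and Grin3b). In the female Amy, 1 auxiliary and 1 scaffold gene were called, both higher with THC, and none of the 7 other subunits tested, beside 1.57% of all genes. Cacng3, a transmembrane AMPA receptor regulatory protein, averaged 72.3 ± 6.61 CPM with THC and 53.6 ± 4.97 CPM with vehicle (0.42 ± 0.073, adjusted p = 0.0135), and Dlgap1, a protein that ties PSD-95 to Shank scaffolds, 425 ± 35.7 CPM and 313.8 ± 39.95 CPM (0.43 ± 0.087, adjusted p = 0.0244). Without FTL_344, an alternative chosen after seeing the data, Cacng3 was still called (0.43, adjusted p = 0.0331) and Dlgap1 was not (0.41, adjusted p = 0.0519). At an unadjusted p under 0.05 there were 5 of 14 auxiliary, 10 of 15 scaffold and 2 of 7 other genes, beside 21.9% of all genes, with median log2 fold changes of 0.161, 0.26 and 0.0787. The marker sums of the female Amy given above moved with these genes too, and their part was not tested. In the PFC, Homer1, a scaffold of group I metabotropic receptors, was called lower in males (−0.40 ± 0.102, adjusted p = 0.0469) beside 0.237% of all genes.

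Between regions, the auxiliary and scaffold genes were mostly lower in the VTA. VTA against Amy called 10 of 14 auxiliary genes lower and 3 higher, 11 of 15 scaffold genes lower and 1 higher, and 5 of 8 other subunits lower and 1 higher, where 20.5% of all genes were called lower and 22.8% higher. Shisa7, an AMPA receptor auxiliary protein, gave −2.14 (adjusted p = 9.88e-37) and Dlg3, which encodes SAP102, −1.12 (adjusted p = 4.83e-32). In VTA against NAc, Grip2, which binds GluA2 and GluA3, was called higher at 1.94 (adjusted p = 2.2e-32). DMS against PFC was mixed, with 6 auxiliary genes called higher and 4 lower, and 1 scaffold gene higher and 5 lower, where 27% of all genes were called higher and 22.3% lower. The auxiliary genes Cacng4 (2.702, adjusted p = 8.58e-46) and Cnih3 (−3.32, adjusted p = 1.88e-25) moved in opposite directions, and the scaffold gene Dlgap1 gave −2.52 (adjusted p = 1.34e-39).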

How the data were processed

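Polyadenylated RNA from tissue punches was made into stranded libraries and sequenced as read pairs. The authors trimmed reads with cutadapt 2.9, aligned them to mm10 with STAR 2.7.3a and estimated counts per gene with RSEM 1.3.1, per the labels and the study's methods, and deposited expected counts in 2 tables, 1 for PFC and DMS (48 libraries) and 1 for NAc, Amy and VTA (71 libraries). Of these values 4.9% were not whole, and they were rounded before testing. Groups came from the sample labels, and all value columns were used.

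Levels are TMM-normalized CPM. Each contrast was fitted across all genes that passed filterByExpr with the quasi-likelihood test of edgeR 4.0.16 (R 4.3.3), with Benjamini-Hochberg adjustment over all genes, and SEs were derived from the log2 fold change and its F statistic. THC was compared with vehicle in the 12 libraries of 1 region and sex (11 in the male VTA), and regions in 1 fit of the vehicle libraries. DESeq2 1.42.0, other size factors, no filter, other thresholds and leaving out each library were alternatives. Correlations used log2 CPM with a prior count of 2. Scripts were tested on simulated data.

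The members and gene lists were chosen with earlier results of these data known. Outside the members, a list gene was named only if called in a comparison, at most 4 per list and comparison by smallest p. No 2 libraries of a group agreed within sampling noise. Single values of some genes are not reported here.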

Additional observations from a re-analysis of the deposited data

Results flagged for a closer look

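In 16 of the 200 groups of 1 member, region, sex and treatment, the highest or lowest library stood apart from the other libraries of its group by Dixon's test, which is 8% where chance flags about 1 group in 20. In 11 of them the highest library stood apart and in 5 the lowest. In the female Amy, vehicle library FTL_338 was lowest for Grin2a (47.8 CPM) and Grin2b (176 CPM). In the male Amy, THC library FTL_356, whose sex genes went against its label, was highest for Gria1 (952 CPM).

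In the DMS, vehicle library FTL_285 of a female was highest for Grin2d (15.2 CPM) and Grin3a (20.2 CPM), with a cortical projection neuron marker sum of 263.7 CPM, the other 5 libraries of its group being at most at 4.02 CPM. Vehicle library FTL_301 of a male was highest for Grin2d (15.8 CPM) and Grin3a (18.2 CPM), with a medium spiny neuron marker sum of 5525 CPM, the lowest of its group, which reached 8644 CPM, and THC library FTL_308 of a male was highest for Grin3a (14.05 CPM, the next at 13.07 CPM). In the VTA, vehicle library FTL_371 of a male, the shallowest of the series, was highest for Gria1 (362.4 CPM) and Gria2 (318.2 CPM), with a dopaminergic marker sum of 1109 CPM, the lowest of its group, which reached 3265 CPM, and THC library FTL_368 of a female was highest for Gria2 (312.7 CPM), with a dopaminergic sum of 1222 CPM. In that group FTL_363 had a lower dopaminergic sum, 877.6 CPM, with 272.9 CPM of Gria2, inside the range of the other libraries.

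In the female PFC, THC library FTL_272 was lowest for Gria3 (345.6 CPM) and Gria4 (121 CPM) and highest for Grin3a (69.5 CPM). In the female NAc, vehicle library FTL_311 was lowest for Gria1 (638 CPM) and FTL_309 highest for Grin2b (448 CPM). The part of the marker sums in these values was not tested.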

How the results depend on the processing

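Over 35 counts of called members, 17 alternative values differed by more than 1.5 times from the main count. For THC in the female Amy the count was 0 in the main test, 2 with DESeq2, 1 under the FDR alone, and 0 to 1 when each library was left out, with 1 only without vehicle library FTL_338. For sex in the DMS it was 2 under the FDR alone. With log2 fold changes required to reach 1 in size, the counts fell to 2 for DMS against PFC, 2 for NAc against PFC, 2 for Amy against PFC, 2 for Amy against DMS, 5 for VTA against DMS, 0 for Amy against NAc, 4 for VTA against NAc and 5 for VTA against Amy. Under the FDR alone, an alternative chosen after seeing the data for the region fits, they were 9 for NAc against PFC, 8 for NAc against DMS, 8 for Amy against DMS and 7 for Amy against NAc. In the same pairs, 75.7%, 66.3%, 73.7% and 60.4% of all genes were at an unadjusted p under 0.05 by edgeR. This rule is looser than the FDR, so these shares are not matched to the counts. THC libraries in place of vehicle called 4 members for Amy against NAc. Apart from the looser or stricter fold rule, which sets these counts by its construction, the cause was not tested. The share of all genes called was not computed for the fold rule of 1, for the THC libraries or with a library left out.

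Of 3390 alternative values of single members over 400 results, 3323 kept their side of the threshold or moved by less than the spread, 16 passed it, 8 no longer did, 43 moved (shares by count against shares by exon length) and 0 called values changed sign. Among all 3340 alternative log2 fold changes, called or not, 130 had another sign than the main value, which was at most 0.18 in size. No paired analysis was possible because the library numbers are unique and no group shares them with another. By median count over libraries, depth limits Grin2d (436), Grin2c (912) and Grin3a (1235) most, and the lowest count of any member in a library was 107 (Grin2c).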
